A study of Mus musculus with 4 samples.

Results

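The genes described here make cholesterol, sense its level through the transcription factor SREBP2, and carry, store or release it in the cell. They were 29 named genes, chosen by function but with earlier results of these data known. They were looked up by symbol among the 24235 genes of the mRNA tables. Of these, 27 reached 1 FPKM (a level per kilobase of transcript after scaling for library size) in at least 1 library, as did 10680 genes in all. The study profiled macrophages grown with M-CSF from bone marrow of C57BL/6 mice aged 7 weeks, in 4 libraries. Wild type (WT) and Sema6D-/- cells gave 1 library each before and 1 after LPS, a component of the bacterial outer membrane to which macrophages respond with inflammation. The dose was 100 ng/ml and the time 4 h, and "non" in a library's title was read as not stimulated, although the treatment label is the same for all libraries. Pairs of values below are given without LPS first and with LPS second. How many mice contributed to a library, and which part of Sema6d was removed, is not given in the sources used here.

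Cells make cholesterol from acetyl-CoA through mevalonate, farnesyl pyrophosphate, squalene and lanosterol. When sterol in the endoplasmic reticulum is low, Scap carries SREBP2 to the Golgi, where it is cut and its free part turns on the genes of synthesis. When sterol is plentiful, Insig proteins hold Scap and SREBP2 back. Macrophages also take in much cholesterol by engulfing lipoproteins and dead cells, release it from lysosomes through Npc1 and Npc2, and store it as ester made by Soat1.

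With a single library in each group, no difference has a replicate check and no test across libraries was possible. Estimated depth ranged from 17.4 to 23.6 M fragments. Sema6d was low in all libraries and not lower in those labelled Sema6D-/- (0.304 and 0.219 FPKM in WT, 0.563 and 0.592 in the others), which goes against the label unless the part counted lies outside the deletion, so the genotype is called by its label throughout. Xist, the RNA of the inactive X chromosome, measured 22.3 and 21.4 FPKM in the WT pair against 0.0333 and 0.0306 under the label Sema6D-/-, while the Y-linked genes Eif2s3y and Ddx3y were the reverse, so genotype and sex-linked expression cannot be told apart for any gene below. All 8 macrophage markers were measured, with summed levels of 17409 to 24744 FPKM, mostly Lyz2 (14435 to 19821). They differed by genotype in both directions, with log2 ratios without and with LPS of 1.13 and 1.05 for Cd14, 0.95 and 1.97 for Mertk, 0.70 and 0.47 for Csf1r, and -0.84 and -1.02 for Itgam. Of 8 neutrophil markers 7 reached 1 FPKM, and their sum was lower in the libraries labelled Sema6D-/- (209 and 321 FPKM) than in WT (739 and 1122), while the defining marker Ly6g stayed at or below 0.450 FPKM. The 5 other marker lists, for dendritic cells, lymphocytes, stromal, erythroid and mast cells, had 3 of 29 members at 1 FPKM and summed to at most 7.49 FPKM. Adipoq, Hba-a1, Mcpt4 and Tpsab1 were at 0 in all libraries. Cxcl10, an interferon-induced gene, measured 30.5 FPKM in unstimulated WT and 267 in the unstimulated library labelled Sema6D-/-, so these 2 also differed in an inflammatory gene before LPS.

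Most sterol genes were higher in the libraries labelled Sema6D-/-, and this was seen without LPS. There, 23 of 27 measured members were higher in the library of that label and 4 lower, where 55.9% of the 10322 genes measured were higher and 44.1% lower. Members had a median log2 ratio of 0.47, against 0.04 over all genes measured. Log2 ratios are of (FPKM + 1) unless square brackets follow. A ratio followed by brackets has no value added, and the brackets hold its 95% interval from fragment counts, which covers counting error only. In bulk RNA, fewer cells of a type and less RNA per cell cannot be told apart. The part that the macrophage and neutrophil markers and Cxcl10 had in the genotype ratios was not tested.

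The differences were modest in size. By a 2-fold rule 1 of 27 members was higher (Stard4) and 0 lower, where 2.51% and 2.19% of all genes were. By a 1.5-fold rule, chosen after the data were seen, 8 were higher and 0 lower, where 6.96% and 5.82% of all genes were. Intervals lay above 0 for 21 members and below 0 for 4, but the share of all genes with such intervals was not counted. In 17 of 27 members both libraries labelled Sema6D-/- lay above both WT libraries, an order found in 13.6% of the 10680 genes, and in 0 did both lie below, found in 12.2%. Scaled to equal summed FPKM in each library, 9 kept that order against 6.54% of genes. On that scale 22 members were still higher without LPS and 5 lower, where 55.3% of all genes were higher.

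**Figure D1:**
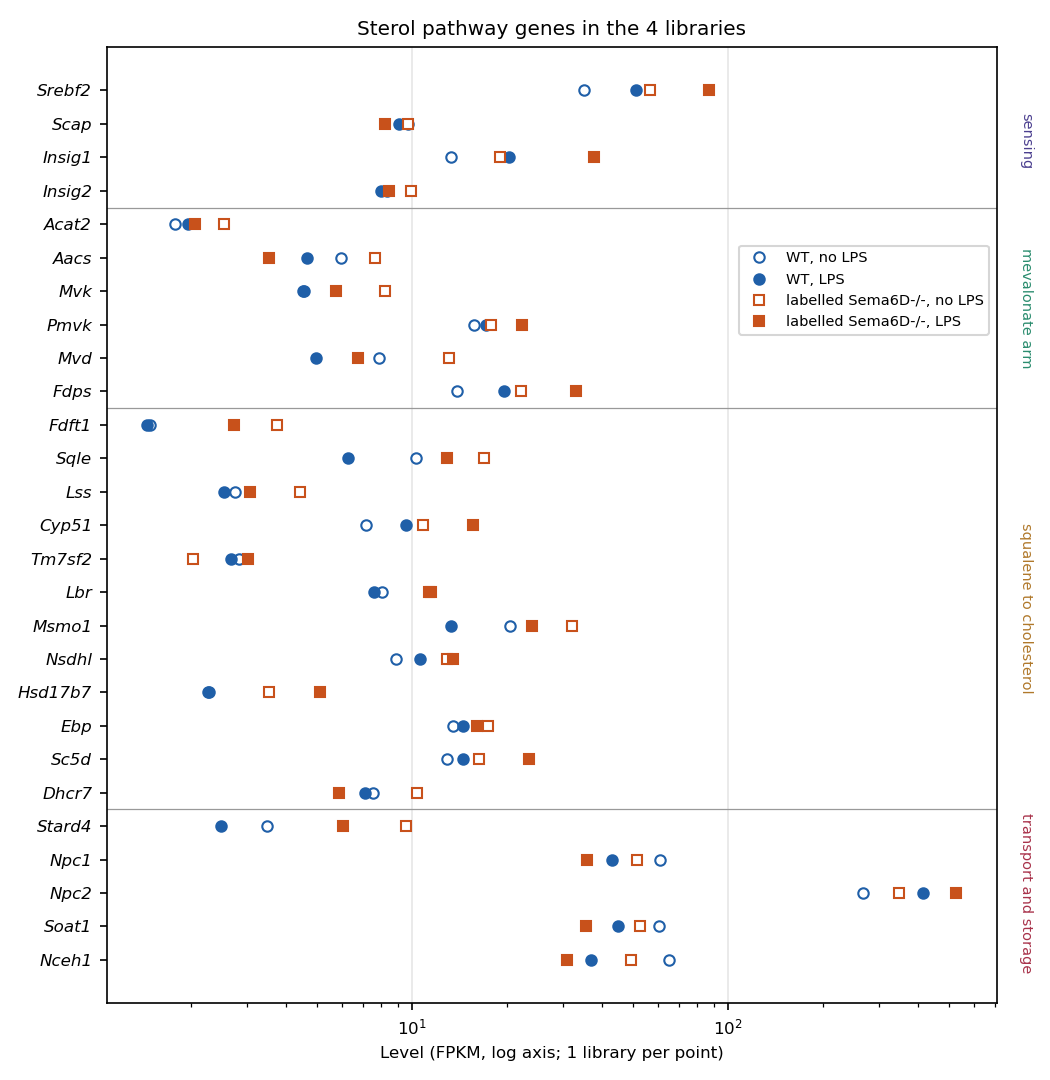
Levels of the 27 measured sterol genes (FPKM, log axis), 1 point per library, with circles for WT, squares for libraries labelled Sema6D-/- and filled symbols for LPS. Squares lie to the right of both circles in 17 genes, while Npc1, Soat1 and Nceh1 have the WT library without LPS farthest to the right.

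The sensing genes come first. Srebf2 encodes SREBP2, and its gene is itself a target of the factor. It measured 34.9 FPKM in WT without LPS, 51.0 in WT with LPS, 56.6 in the library labelled Sema6D-/- without LPS and 86.9 in that with LPS. Both libraries of that label lay above both WT libraries, and within each genotype the library with LPS was the higher. The genotype ratio was 0.70 [0.64, 0.75] without LPS and 0.77 [0.72, 0.82] with LPS. The first of these, 0.68 with the added 1, was at percentile 94.7 of all genes measured.

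Insig1, which retains Scap when sterol is plentiful and is another classic SREBP target, measured 13.3 FPKM in WT without LPS and 20.2 with LPS. It measured 18.9 and 37.7 FPKM in the libraries labelled Sema6D-/-. The genotypes overlapped here, since the unstimulated library of that label lay below WT with LPS. The genotype ratio was 0.51 [0.38, 0.63] without LPS and 0.90 [0.78, 1.01] with LPS.

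The other sensing genes differed less. Insig2, a related retention protein, measured 8.35 and 7.99 FPKM in the WT pair against 9.93 and 8.46 in the other libraries. Scap, the escort protein, measured 9.71 and 9.11 FPKM in the WT pair against 9.72 and 8.20 there. Its genotype ratios of 0.00 [-0.13, 0.13] and -0.15 [-0.32, 0.01] were not detectable at this depth. The Scap value rests on the sum of its transcripts, since its leading transcript alone gave log2 ratios of 0.13 and -0.75.

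The mevalonate arm turns acetyl-CoA into farnesyl pyrophosphate. Before LPS, 6 of 6 measured members were higher in the library labelled Sema6D-/-, with a median log2 ratio of 0.49. The count was 6 of 6 on each of the 3 scales tried (as deposited, at a common total of FPKM, and centred on the median gene). Of all genes 55.9%, 55.3% and 52.5% were higher on these scales. With LPS 5 members were higher and 1 lower, or 4 and 2 on either other scale. Of all genes 55.2%, 32.2% and 47.7% were then higher. Mvk, mevalonate kinase, measured 4.53 and 4.54 FPKM in WT without and with LPS, against 8.19 and 5.76 in the libraries labelled Sema6D-/-. The WT pair lay almost together and below both others, with genotype ratios of 0.85 [0.58, 1.13] and 0.34 [-0.01, 0.70]. Mvk summed 2 transcripts, and the leading one alone gave 1.32 without LPS in place of 0.73 on the scale with the added 1.

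Mvd, which makes isopentenyl pyrophosphate by decarboxylation, measured 7.89 and 4.95 FPKM in the WT pair against 13.1 and 6.75 in the libraries labelled Sema6D-/-. It was lower with LPS in both genotypes, and at either state higher in the library of that label, with ratios of 0.73 [0.53, 0.93] and 0.45 [0.13, 0.77]. Fdps, farnesyl pyrophosphate synthase, measured 13.8 and 19.5 FPKM in the WT pair against 22.0 and 33.0 in the other libraries. It shared the order of Srebf2, with ratios of 0.67 [0.49, 0.86] and 0.76 [0.57, 0.94].

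Pmvk, phosphomevalonate kinase, measured 15.7 and 17.2 FPKM in the WT pair against 17.8 and 22.3 in the libraries labelled Sema6D-/-. Acat2, the thiolase at the entry of the pathway, measured 1.78 and 1.95 FPKM in the WT pair against 2.55 and 2.05 there. Its interval with LPS, 0.07 [-0.41, 0.55], spanned 0. Aacs, which supplies acetoacetyl-CoA from ketone bodies, changed sides, at 5.98 and 4.64 FPKM in WT against 7.66 and 3.52, so its genotype ratio was 0.36 [0.18, 0.53] without LPS and -0.40 [-0.68, -0.12] with LPS.

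A pair of members could not be read. Hmgcs1, which makes HMG-CoA, was listed at 0 in every library, and Idi1, the isopentenyl isomerase, measured 0.121, 0.260, 0.318 and 0.790 FPKM from 11 to 37 fragments. Gapdh and Eno1, enzymes that every cell uses, were likewise listed at no more than 0.212 and 0.515 FPKM. The listed values of Hmgcs1 and Idi1 are therefore not taken as low expression, and both stay out of every count of levels or ratios.

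Along the arm from squalene to cholesterol most enzymes differed by genotype in the same direction. Without LPS 11 of 12 members were higher in the library labelled Sema6D-/- and 1 lower, where 55.9% of all genes were higher. The median log2 ratio was 0.48, and these member counts held on each of the 3 scales. With LPS 11 were higher and 1 lower, with a median of 0.57, where 55.2% of all genes were higher. At a common total these were 9 and 3, with a median of 0.37, where 32.2% of all genes were higher. Fdft1, squalene synthase, measured 1.48 and 1.45 FPKM in the WT pair against 3.73 and 2.74 in the libraries labelled Sema6D-/-. Its ratio of 1.33 [1.05, 1.62] without LPS was the highest among the enzymes, from 160 and 293 fragments. With LPS it was 0.91 [0.55, 1.29].

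Sqle, squalene epoxidase and a rate-limiting step, measured 10.3 and 6.29 FPKM in the WT pair against 16.9 and 12.9 in the libraries labelled Sema6D-/-. Both WT libraries were below both others, although LPS libraries were the lower in each genotype, and the genotype ratio was 0.71 [0.57, 0.85] without LPS and 1.04 [0.84, 1.24] with LPS. Lss, which closes the sterol rings to make lanosterol, measured 2.76 and 2.54 FPKM in the WT pair against 4.42 and 3.06 in the other libraries. The genotypes were apart without LPS, at 0.68 [0.48, 0.88], while the interval with LPS, 0.27 [-0.00, 0.54], reached 0.

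Cyp51, lanosterol demethylase, measured 7.14 and 9.54 FPKM in the WT pair against 10.8 and 15.6 in the libraries labelled Sema6D-/-. Msmo1, which oxidises the methyl groups of the sterol ring, measured 20.4 and 13.3 FPKM in the WT pair against 32.1 and 24.0 there. Both were higher in the libraries of that label in either state. Genotype ratios were 0.60 [0.46, 0.74] and 0.70 [0.56, 0.85] for Cyp51, and 0.65 [0.54, 0.77] and 0.85 [0.69, 1.02] for Msmo1.

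Hsd17b7, a sterol ketone reductase, measured 2.27 and 2.26 FPKM in the WT pair against 3.52 and 5.13 in the libraries labelled Sema6D-/-. WT libraries were level and the other pair was apart, which gave genotype ratios of 0.63 [0.41, 0.86] and 1.18 [0.93, 1.44]. Sc5d, sterol desaturase, measured 12.9 and 14.5 FPKM in the WT pair against 16.3 and 23.5 in the others, with ratios of 0.34 [0.24, 0.43] and 0.70 [0.59, 0.80].

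Lbr, the nuclear envelope protein that is also a sterol reductase, measured 8.05 and 7.56 FPKM in the WT pair against 11.5 and 11.3 in the libraries labelled Sema6D-/-, so it was higher by genotype, at 0.51 [0.37, 0.65] and 0.59 [0.41, 0.76], and nearly level across LPS. Tm7sf2, the second enzyme with that reductase activity, was the exception of this arm, at 2.84 and 2.67 FPKM in the WT pair against 2.03 and 3.02 in the others. Its genotype ratio was -0.49 [-0.97, -0.02] without LPS and 0.17 [-0.34, 0.69] with LPS, from 58 to 111 fragments.

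Nsdhl and Ebp, a sterol dehydrogenase and a sterol isomerase, are encoded on the X chromosome, where the libraries differ in Xist. Nsdhl measured 8.89 and 10.6 FPKM in the WT pair against 12.9 and 13.5 in the libraries labelled Sema6D-/-. Ebp measured 13.4 and 14.5 FPKM in the WT pair against 17.3 and 16.0 there. Both were higher in the libraries of that label, although Ebp with LPS had an interval reaching 0, at 0.14 [-0.05, 0.34]. The other members of the arm are autosomal.

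Dhcr7, which carries out the last reduction to cholesterol, changed sides as Aacs did. It measured 7.54 and 7.09 FPKM in the WT pair against 10.4 and 5.87 under the label Sema6D-/-. The latter held both the highest and the lowest value, with genotype ratios of 0.46 [0.30, 0.63] and -0.27 [-0.51, -0.04].

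**Figure D2:**
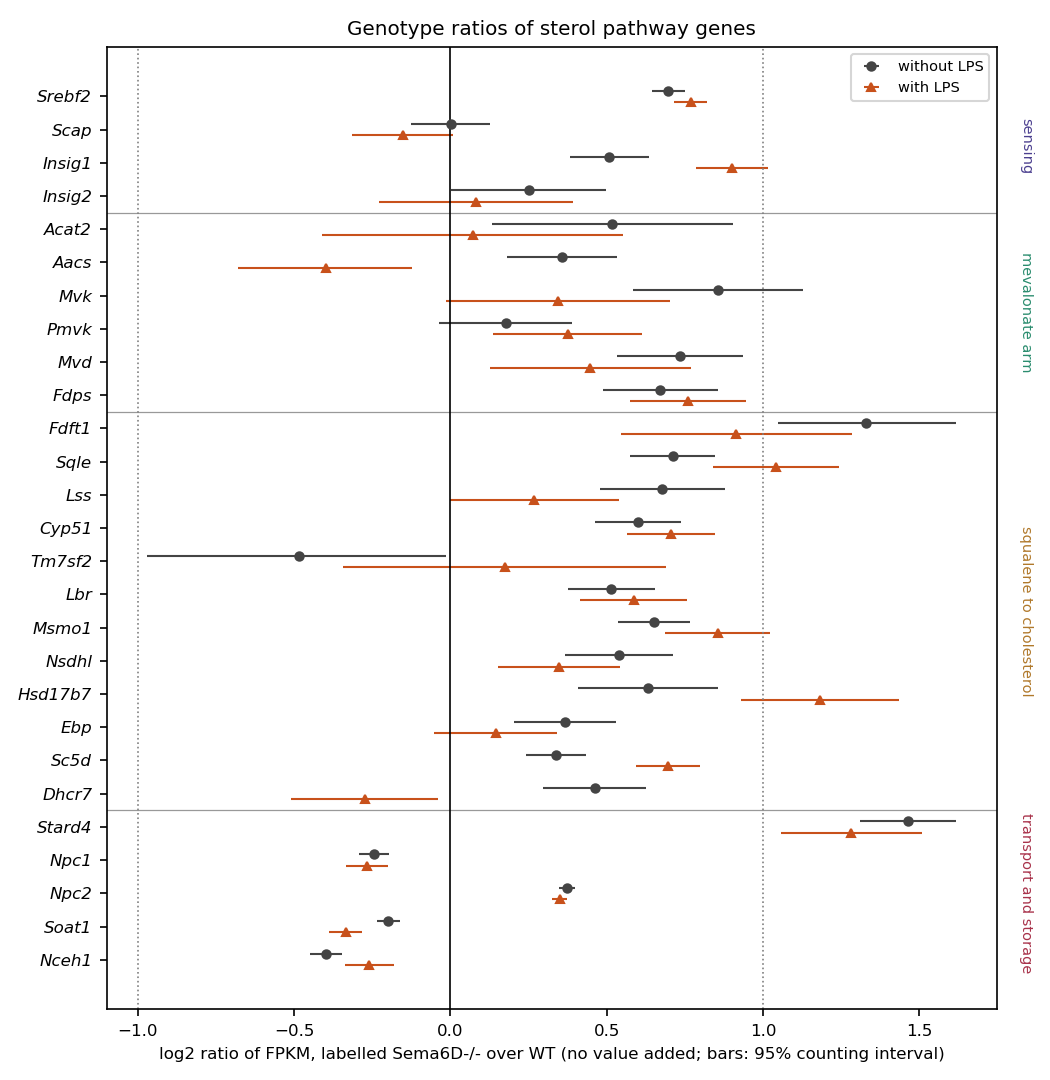
Log2 ratio of FPKM, libraries labelled Sema6D-/- over WT, for the 27 measured genes without LPS (circles) and with LPS (triangles); bars are 95% counting intervals and dotted lines mark 2-fold. Most of both synthesis arms lies to the right of 0. Without LPS Stard4 and Fdft1 lie farthest to the right and with LPS Stard4 and Hsd17b7, and Npc1, Soat1 and Nceh1 lie to the left in both states.

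Transport and storage genes were split. Stard4, a sterol carrier between membranes and an SREBP target, measured 3.48 and 2.49 FPKM in the WT pair against 9.58 and 6.05 in the libraries labelled Sema6D-/-. All values of that label lay above WT, with genotype ratios of 1.46 [1.31, 1.62] and 1.28 [1.06, 1.51], and without LPS the gene stood at percentile 98.5 of all genes. It was the only member past 2-fold in either state on the scale with the added 1, at 1.24 and 1.02, and with LPS it fell short at a common total of FPKM (0.80) or centred on the median gene (0.95).

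Npc1 and Npc2 act together to move cholesterol out of lysosomes, and they differed in opposite directions. Npc1 measured 60.9 and 43.0 FPKM in the WT pair against 51.4 and 35.7 in the libraries labelled Sema6D-/-, with genotype ratios of -0.24 [-0.29, -0.20] and -0.27 [-0.33, -0.20]. Npc2, the most abundant member per unit length, measured 268 and 414 FPKM in the WT pair against 347 and 528 there, with ratios of 0.37 [0.35, 0.40] and 0.35 [0.32, 0.37].

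Soat1 stores cholesterol as ester, and Nceh1 is a hydrolase of such esters. Soat1 measured 60.7 and 44.9 FPKM in the WT pair against 52.8 and 35.6 in the libraries labelled Sema6D-/-. Nceh1 measured 65.0 and 37.0 FPKM in the WT pair against 49.4 and 30.9 there. Both were lower with LPS and, at either state, lower in the library labelled Sema6D-/-, opposite to most synthesis genes. Genotype ratios were -0.20 [-0.24, -0.16] and -0.34 [-0.39, -0.28] for Soat1, and -0.40 [-0.45, -0.35] and -0.26 [-0.34, -0.18] for Nceh1.

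With LPS the genotype difference of the sterol genes was again mostly in that direction. Of 27 members 21 were higher and 6 lower in the library labelled Sema6D-/-, where 55.2% of 10078 genes were higher and 44.8% lower, and the median log2 ratio was 0.35 against 0.04 over all genes. By the 1.5-fold rule 10 were higher, where 10.0% of genes were, and 0 were lower, where 7.91% were. By the 2-fold rule 1 was higher and 0 lower, where 3.09% and 3.18% were. Rescaling to a common total left 17 higher and 10 lower, where 32.2% of all genes were higher. The median of the members was then 0.12, after a shift of -0.20 in the median over all genes. Acat2, Insig2, Ebp and Tm7sf2 changed side. Across both states 20 members were higher in both, where 40.5% of 9720 genes were, and 3 were lower in both, where 30.3% were.

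**Figure D3:**
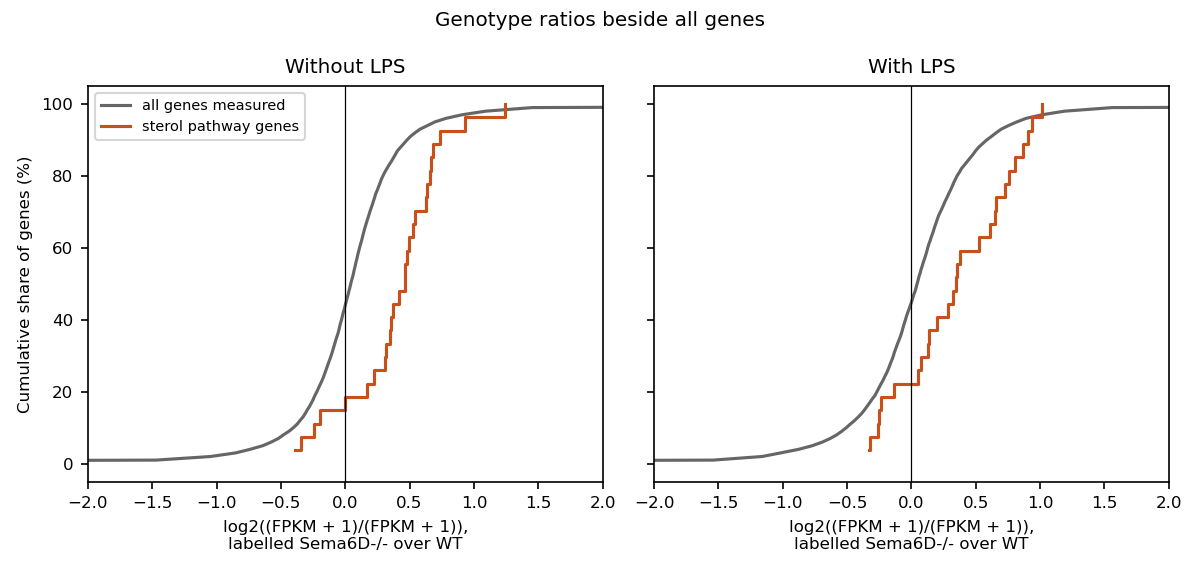
Cumulative share of genes (%) against the log2 ratio with 1 FPKM added, libraries labelled Sema6D-/- over WT, for all genes measured (grey) and the 27 sterol genes (orange), without LPS at left and with LPS at right. The orange line lies to the right of the grey one over most of its course, with medians of 0.47 against 0.04 and of 0.35 against 0.04.

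The promoters of the sterol genes are shown because most members, though not all, were higher in the libraries labelled Sema6D-/-. SREBP binds the sterol regulatory element, and textbook promoters of this pathway pair it with the factor NF-Y, which binds the CCAAT box. RefSeq promoters (GRCm38.p6) were found for 24 of 29 members, Hmgcs1 and Idi1 included. Those of Fdps, Fdft1, Sqle, Stard4 and Npc1 are not analysed here, and these include Stard4 and Fdft1, the members with the highest genotype ratios without LPS, and Npc1, which was lower. In the 250 bases before each annotated start, on both strands, the letters TCACNCCAC were found in 1 of 30 member promoters, that of Hmgcs1, and in 1.05% of 32851 promoters. The letters CCAAT, or ATTGG on the other strand, were found in 21 of the 30 (70%) and in 33.9% of all promoters. The search letters do not overlap each other. A match is a description of the sequence and not a shown binding site, and the libraries hold no binding data. Only these letters in these 250 bases were searched, so the lack of a match does not show that an element is absent. Each segment below is read along the gene's own strand and shows 1 match in capitals, although some promoters hold several. They give first the TCACNCCAC match of Hmgcs1, then CCAAT boxes of genes higher in the libraries labelled Sema6D-/-, and last those of Soat1 and Nceh1, which were lower.
Hmgcs1 (chr13:119690194-119690242, plus strand): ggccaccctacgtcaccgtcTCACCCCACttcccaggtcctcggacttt
Srebf2 (chr15:82147114-82147158, plus strand): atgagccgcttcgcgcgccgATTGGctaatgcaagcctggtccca
Insig1 (chr5:28071176-28071220, plus strand): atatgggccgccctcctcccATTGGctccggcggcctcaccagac
Mvk (chr5:114444129-114444173, plus strand): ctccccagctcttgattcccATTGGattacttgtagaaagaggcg
Mvd (chr8:122443425-122443469, minus strand): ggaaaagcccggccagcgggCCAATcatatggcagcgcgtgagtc
Lss (chr10:76531523-76531567, plus strand): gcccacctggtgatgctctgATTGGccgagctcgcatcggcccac
Cyp51 (chr5:4104702-4104746, minus strand): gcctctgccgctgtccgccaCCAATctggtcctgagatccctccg
Msmo1 (chr8:64733609-64733653, minus strand): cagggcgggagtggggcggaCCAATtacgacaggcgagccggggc
Hsd17b7 (chr1:169969254-169969298, minus strand): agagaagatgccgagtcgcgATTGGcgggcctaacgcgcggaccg
Soat1 (chr1:156474334-156474378, minus strand): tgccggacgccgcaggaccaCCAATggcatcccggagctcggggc
Nceh1 (chr3:27182934-27182978, plus strand): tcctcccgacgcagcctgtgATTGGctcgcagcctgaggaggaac
The box was present in 21 of the 24 member genes searched, and in 37.5% of all genes with a promoter searched. Members that differed in either direction were among the 21. Letters found in nearly all members searched could not separate the higher from the lower ones, so no conclusion is drawn.

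With LPS, sterol genes differed in both directions on the deposited scale. In WT 11 of 27 members were higher with LPS and 16 lower, where 50.0% of 10375 genes were in either direction, with a median log2 ratio of -0.06 against -0.00 over all genes. By the 2-fold rule 0 were higher and 0 lower, where 10.7% and 4.85% of genes were, and by the 1.5-fold rule 1 and 2, where 17.3% and 13.9% were. In the libraries labelled Sema6D-/- 10 were higher and 17 lower, where 50.6% of 10398 genes were higher and 49.4% lower, with a median of -0.22 against 0.01. By the 2-fold rule 0 were higher and 0 lower, where 14.0% and 8.81% of genes were, and by the 1.5-fold rule 3 and 5, where 22.0% and 20.1% were. The cytokine gene Tnf, for scale, had log2 ratios of 3.46 and 5.02. Summed FPKM was higher with LPS, so the LPS directions depend on the scale. Equal totals lower the median over all genes by 0.46 in WT and 0.66 in the others, which leaves 3 members higher and 24 lower in WT, and 1 and 26 in the others. Centring on the median of 6110 genes that reached 5 FPKM throughout lowers ratios by 0.11 and 0.15, which leaves 8 and 19, and 9 and 18.

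Higher with LPS in both genotypes, with both intervals above 0, were Insig1, Srebf2, Fdps, Cyp51, Sc5d and Npc2. Ratios, WT first and the label Sema6D-/- second, were 0.60 [0.48, 0.73] and 0.99 [0.88, 1.11] for Insig1, and 0.55 [0.49, 0.60] and 0.62 [0.57, 0.67] for Srebf2. They were 0.49 [0.30, 0.69] and 0.58 [0.41, 0.76] for Fdps, 0.42 [0.27, 0.56] and 0.52 [0.39, 0.66] for Cyp51, 0.17 [0.07, 0.27] and 0.53 [0.43, 0.63] for Sc5d, and 0.63 [0.60, 0.65] and 0.61 [0.58, 0.63] for Npc2. These directions depended on the scale, since at a common total only Insig1 among the 6 kept a positive ratio in both genotypes (0.07 and 0.23). Srebf2 (0.02 and -0.14) and Npc2 (0.10 and -0.15) then differed in sign between genotypes, and Fdps (-0.03 and -0.17), Cyp51 (-0.10 and -0.22) and Sc5d (-0.34 and -0.21) turned in both.

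Lower with LPS in both genotypes, with both intervals below 0 and on all 3 scales, were Nceh1, Npc1, Soat1 and Stard4 of transport and storage, and Sqle, Msmo1, Mvd and Aacs of synthesis. Nceh1 had -0.81 [-0.87, -0.76] and -0.68 [-0.75, -0.60], and Npc1 -0.50 [-0.56, -0.45] and -0.53 [-0.59, -0.46]. Soat1 had -0.43 [-0.47, -0.39] and -0.57 [-0.62, -0.52], and Stard4 -0.48 [-0.71, -0.26] and -0.66 [-0.82, -0.51]. Among the enzymes, Sqle had -0.72 [-0.90, -0.53] and -0.39 [-0.54, -0.23], Msmo1 -0.62 [-0.78, -0.47] and -0.42 [-0.55, -0.29], and Mvd -0.67 [-0.95, -0.40] and -0.96 [-1.22, -0.70]. On the deposited scale Srebf2 and Insig1 were thus on the other side of 0 from Sqle, Stard4 and Mvd.

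**Figure D4:**
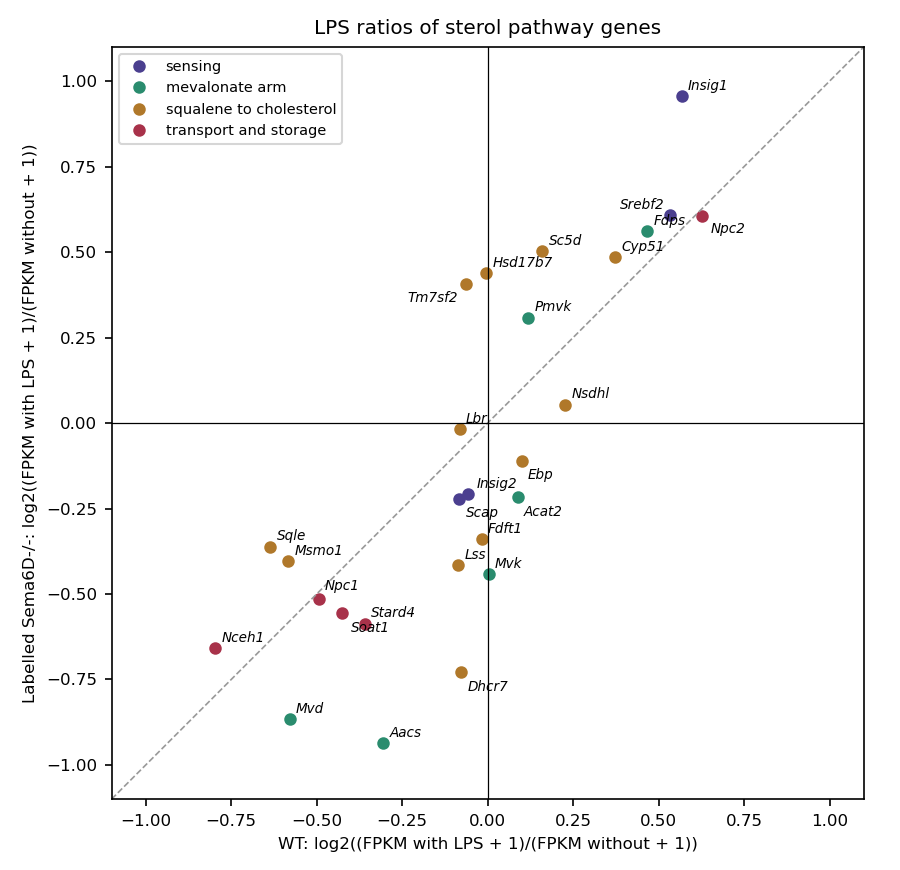
Log2 ratio with LPS over without LPS (1 FPKM added) in WT (horizontal) and in the libraries labelled Sema6D-/- (vertical), 1 point per gene, coloured by role; the dashed line marks equal ratios. Insig1 lies highest, Aacs and Mvd lowest, and Dhcr7 lies far below the dashed line near 0 on the WT axis.

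The LPS ratios of the 2 genotypes had a Pearson r of 0.82 and a Spearman rho of 0.83 across the 27 members, which are genes of the same 4 libraries and no replicates. The members had the same sign in 22 cases, 8 higher and 14 lower in both, and opposite signs in 5. Among all 10093 genes measured in both, 44.1% were higher in both and 43.3% lower in both. In the difference of the LPS ratios (libraries labelled Sema6D-/- minus WT) 12 members were positive and 15 negative, where 49.3% of 10680 genes were positive and 50.7% negative, with a median of -0.02. At a common total 5 were positive and 22 negative, where 25.1% of all genes were positive. By the 2-fold rule 0 were past it in either direction, where 1.83% and 1.25% of genes were, and by the 1.5-fold rule 0 were positive and 2 negative (Dhcr7 and Aacs), where 5.57% and 5.71% were.

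The difference of LPS ratios had an interval above 0 in 6 members and below 0 in 5, and spanned 0 in 16. The shares over all genes were not counted. Dhcr7 was level in WT, at -0.09 [-0.28, 0.10], and lower with LPS in the libraries labelled Sema6D-/-, at -0.82 [-1.04, -0.61], a difference of -0.74 [-1.02, -0.45]. Aacs had -0.36 [-0.58, -0.16] and -1.12 [-1.37, -0.87], a difference of -0.76 [-1.08, -0.44]. These 2 were at percentiles 4.28 and 4.68 of all genes. Hsd17b7 differed the other way, level in WT at -0.01 [-0.27, 0.25] and higher with LPS in the others at 0.54 [0.33, 0.76], a difference of 0.55 [0.22, 0.88]. Insig1 (0.39 [0.22, 0.56]) and Sc5d (0.36 [0.22, 0.50]) were also more positive there, and rescaling to a common total kept the direction of these 5. Of the others, Mvk (-0.51 [-0.95, -0.07]), Lss (-0.41 [-0.74, -0.08]) and Soat1 (-0.14 [-0.20, -0.07]) were more negative under the label Sema6D-/-. Sqle (0.33 [0.09, 0.57]), Msmo1 (0.20 [0.00, 0.40]) and Nceh1 (0.14 [0.04, 0.23]) were more positive, though at a common total Msmo1 and Nceh1 changed sign (-0.04 and -0.08).

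Genes around the pathway were followed through 5 further lists. Of the 9 genes of SREBP processing and sterol-regulated degradation, 9 were higher in the library labelled Sema6D-/- in either state. Their medians were 0.13 without LPS and 0.23 with LPS. Over all genes 55.9% were higher without LPS and 55.2% with LPS, with a median of 0.04 in either state. At a common total with LPS 6 of the list were higher and 3 lower, where 32.2% of all genes were higher. Mbtps1, a Golgi protease that cuts SREBP, measured 14.6 and 13.1 FPKM in the WT pair against 19.5 and 17.3 in the others, below 2-fold. By the 2-fold rule 0 of 9 were higher by genotype without LPS and 1 with LPS, where 2.51% and 3.09% of all genes were. That gene was Srebf1, which encodes SREBP1, the factor that mainly drives fatty acid synthesis. It measured 16.7 and 15.6 FPKM in the WT pair against 20.6 and 49.1 in the libraries labelled Sema6D-/-, so 1 library stood far above the other 3. Its ratio with LPS over without was -0.09 [-0.19, 0.01] in WT and 1.25 [1.17, 1.34] in the others. With LPS 2 of the 9 were 2-fold higher in WT and 3 in the others, where 10.7% and 14.0% of all genes were. At a common total these were 0 and 1, and the share of all genes was not counted there. On the deposited scale Rnf139 and Rnf145, ubiquitin ligases of the endoplasmic reticulum with roles in sterol control, were more than 2-fold higher in both genotypes. Rnf139 measured 9.39 and 28.0 FPKM in the WT pair against 9.84 and 36.2 in the others. Rnf145 measured 13.3 and 31.8 FPKM in the WT pair against 13.9 and 39.4 there.

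Fatty acid targets of SREBP1 differed by genotype in both directions. Without LPS 5 of 10 were higher and 5 lower in the library labelled Sema6D-/- (median 0.04), where 55.9% of all genes were higher. With LPS 2 of 9 were higher and 7 lower (median -0.14), where 55.2% of all genes were higher. Among the 5 that reached 5 FPKM in every library the medians were 0.37 and -0.12, where those of the 18 such sterol genes were 0.39 and 0.35, so without LPS the 2 lists were close at that limit. The difference between the lists was not tested. Scd2, a fatty acid desaturase, measured 42.4 and 22.1 FPKM in the WT pair against 22.0 and 5.82 in the others, so it was lower with LPS and lower by genotype. Its genotype ratio was -0.95 [-1.01, -0.88] without LPS and -1.93 [-2.07, -1.79] with LPS. Fads1, another desaturase, measured 24.2 and 15.5 FPKM in the WT pair against 37.6 and 14.0 there, so it was higher in the library of that label without LPS and lower with LPS. On the deposited scale 0 of 10 were 2-fold lower with LPS in WT, where 4.85% of all genes were. In the libraries labelled Sema6D-/- 2 of 9 were, Scd2 and Fads1, where 8.81% of all genes were. At a common total these counts were 2 and 4, and centred on the median gene 1 and 3. The share of all genes was not counted on those scales. In deposited FPKM Srebf1 was highest in the library where Scd2 and Fads1 were lowest.

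Oxysterol enzymes were led by Ch25h, whose product restrains SREBP processing through Insig. It measured 2.34 and 537 FPKM in the WT pair against 8.62 and 935 in the libraries labelled Sema6D-/-, with LPS ratios of 7.84 [7.54, 8.17] and 6.76 [6.57, 6.96]. It was the only one of 3 measured genes past 2-fold with LPS, where 10.7% of all genes were higher in WT and 14.0% in the others. In the isoprenoid branches, which use farnesyl pyrophosphate for other products, 0 of 9 were 2-fold higher with LPS in WT and 1 in the others, against the same shares of all genes. That gene was Pdss1, a subunit that makes the tail of coenzyme Q (2.23 and 4.31 FPKM in WT, 1.16 and 5.72 in the others). Without LPS 4 of the 9 isoprenoid genes were higher and 5 lower by genotype, with a median of -0.04. Of all genes 55.9% were higher and 44.1% lower.

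Among sterol carriers and genes of lysosomal release, some passed 2-fold with LPS. On the deposited scale, 2 of 10 measured were past 2-fold higher and 0 lower in WT, where 10.7% and 4.85% of all genes were. In the libraries labelled Sema6D-/- 4 were higher and 1 lower, where 14.0% and 8.81% of all genes were. At a common total the counts were 1 higher and 3 lower in WT, and 1 and 4 in the others. The share of all genes past 2-fold was not counted on that scale. Stard5, a sterol-binding protein, measured 9.39 and 39.7 FPKM in the WT pair against 13.5 and 59.5 in the others. Stard3, a late endosomal sterol carrier, measured 30.5 and 78.1 FPKM in the WT pair against 38.7 and 93.4 there. Both were higher with LPS in either genotype, opposite to Stard4 of the same protein family. Gramd1b, which takes plasma membrane cholesterol to the endoplasmic reticulum, measured 18.7 and 21.7 FPKM in the WT pair against 11.2 and 27.5 in the others. On the deposited scale it thus passed 2-fold with LPS there and not in WT. Osbpl2, a lipid transfer protein, was lower with LPS, at 11.1 and 5.91 FPKM in the WT pair against 11.4 and 4.28 in the others.

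**Figure D5:**
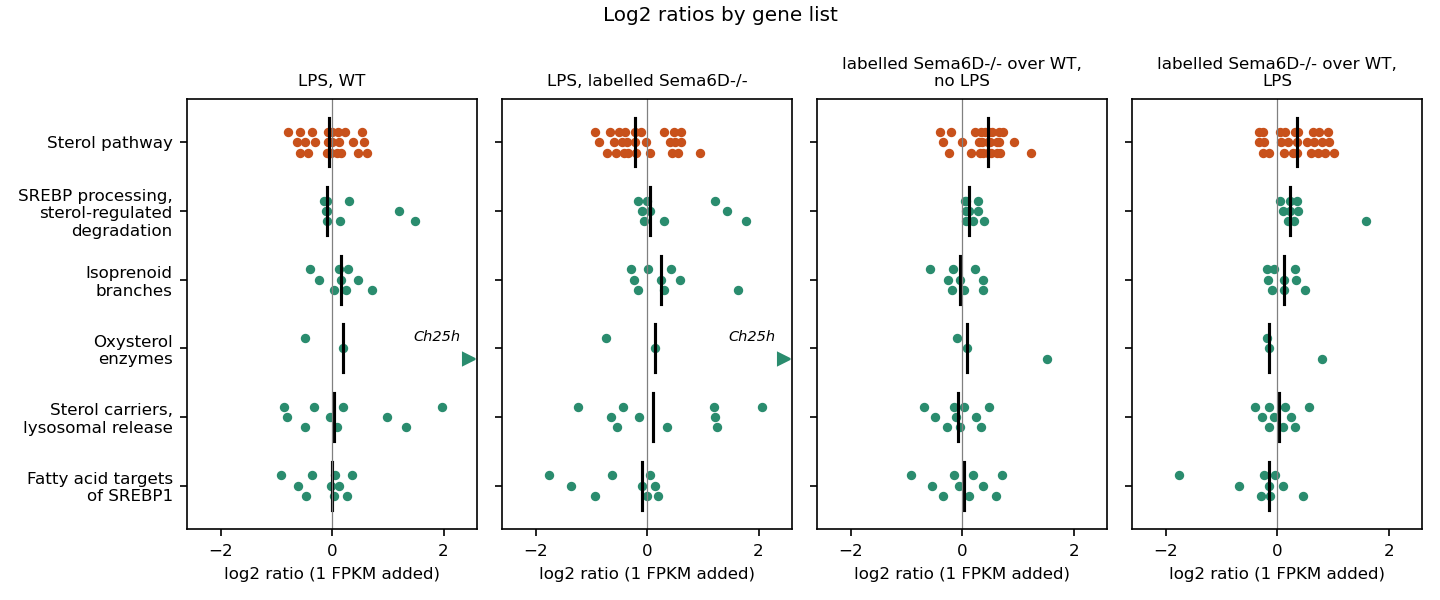
Log2 ratios (1 FPKM added) of the measured genes of 6 lists in the 4 comparisons, 1 point per gene, with a black bar at each list's median; Ch25h lies beyond the axis at 7.33 and 6.60 in the LPS panels. The sterol genes lie mostly right of 0 in the genotype panels (medians 0.47 and 0.35), while the fatty acid targets are spread on both sides (0.04 and -0.14).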

How the data were processed

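Cuffnorm 2.2.1, TopHat2 2.0.13, SAMtools 0.1.19 and Bowtie2 2.2.3 are listed, with mm9, in the submitters' processing notes. Their options, annotation and scaling between libraries are not given in the sources used here. The deposited values were FPKM, taken as that unit from the tools and the values, with 1 value for each of 34487 RefSeq transcripts. Symbols came from the RefSeq table of GRCm38 for 34159 transcripts and from GENCODE for 191, and 137 were left out. Transcripts were summed per symbol, and 7 members had several.

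Log2 ratios used a pseudocount of 1 FPKM, which understates ratios of low genes. Genes under 1 FPKM in both libraries of a comparison were left out of it (all 4 for the difference of LPS ratios), and size rules were 2-fold and 1.5-fold. With 1 library per group no test was run. Fragment counts were recovered from steps of low values, since FPKM times transcript length less a mean fragment of 210 bases, in units of 1 fragment, was whole within 0.1 for 72.2 to 73.9% of low values, against 20% by chance. Lengths were those of GENCODE transcripts, the shortest where several matched. Intervals of 95% are Clopper-Pearson from these counts, or normal on the log scale for differences of ratios, and cover counting error only. Ratios, Clopper-Pearson intervals and the recovery of depth were tested on simulated data of genes with 1 transcript each. Intervals for differences of ratios, and genes with several transcripts, were not part of that simulation. Python 3.11.15, numpy 2.4.6, pandas 2.3.3 and scipy 1.17.1 were used.

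All 29 members are named in the text. From the other lists, genes past 2-fold in any comparison are named, at most 4 per list by size of ratio, and Mbtps1 was added after its values were seen. Members and lists were chosen with earlier results of these data known. Some genes of the pathway are not analysed here.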

Additional observations from a re-analysis of the deposited data

How the results depend on the processing

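No paired analysis was possible because each group held 1 library. Alternatives were a pseudocount of 0.1 FPKM, no filter, a filter at 5 FPKM, a common total, centring on the median gene, and the leading transcript. The sign of a member's ratio was kept at a common total in 19 of 27 for LPS in WT, 18 for LPS under the label Sema6D-/-, 26 between genotypes before LPS, 23 after it and 20 for the difference of responses. Centring kept 24, 26, 26, 26 and 27, and the leading transcript kept 27 in each but genotype with LPS, where it kept 26. The remaining alternatives kept the sign of every member they measured. The median genotype ratio without LPS moved by less than 0.1 under each of them.

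After rescaling to a common total the LPS medians of the members were -0.46 (WT) and -0.89 (label Sema6D-/-), the genotype median with LPS was 0.12, and that of the difference of responses -0.25. The same rescaling moved the medians over all genes by -0.46, -0.66, -0.20 and -0.19, in that order. Members at least 2-fold lower with LPS were then 5 in WT and 11 in the other libraries. By genotype with LPS 0 were 2-fold higher. The share of all genes past 2-fold was not counted at this setting or at those that follow. After centring on the median the LPS medians were -0.17 and -0.37, 2 members were 2-fold lower with LPS in the libraries labelled Sema6D-/-, and 0 were 2-fold higher by genotype with LPS. With a pseudocount of 0.1 FPKM, 2 members were 2-fold higher by genotype without LPS and 3 with LPS, and 1 was 2-fold lower with LPS in the libraries labelled Sema6D-/-. With the leading transcript 2 were 2-fold higher by genotype without LPS, and 1 was lower in the difference of responses.

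By the 1.5-fold rule, members higher and lower were 1 and 2 for LPS in WT, 3 and 5 in those libraries labelled Sema6D-/-, 8 and 0 between genotypes before LPS, 10 and 0 after it, and 0 and 2 as difference of responses. By sign alone they were 11 and 16, 10 and 17, 23 and 4, 21 and 6, and 12 and 15. Both of these rules were chosen after the data were seen. Depth limits Tm7sf2, Acat2 and Fdft1 most among the measured members, with 58 to 293 fragments per library.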

Other observations

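Some of the 7 sterol genes with several transcripts, Scap, Mvk, Insig2 and Pmvk among them, had transcripts whose levels differed in opposite directions between libraries. With the leading transcript Insig2 changed side by genotype with LPS. That transcript measured 7.78 FPKM in WT with LPS and 7.70 in the library labelled Sema6D-/- with LPS. Fuller values are given for Scap and Mvk, whose ratios also changed with the leading transcript. One Scap transcript measured 7.72 FPKM in WT without LPS, 7.17 in WT with LPS, 8.56 in the library labelled Sema6D-/- without LPS and 3.88 in that with LPS. The other Scap transcript measured 1.99, 1.94, 1.16 and 4.32 FPKM in the same order, so it exceeded the first in 1 library. For Mvk one transcript measured 2.68, 1.82, 2.08 and 2.47 FPKM and the other 1.84, 2.72, 6.10 and 3.29 FPKM. The split of shared reads between transcripts is an estimate, and its error is unknown here.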
